A study of Drosophila melanogaster with 18 samples.

Results

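The copper response of 1 transgene line was followed, a population of Drosophila melanogaster DL1 cells that carries an inducible IntS12 gene. The response compares 6 of the 18 RNA-seq libraries of the series over all genes, 3 from the line without copper and 3 from the line with copper. The spread behind its standard errors and p-values was estimated from all 18 libraries. DL1 is a cultured fly cell line. The line was made by transfecting a plasmid with FLAG-tagged IntS12 behind the MtnA promoter and keeping the cells in puromycin, so it is a selected population and not a clone. Cells were grown for 3 d, and the induced samples had 500 µM copper sulfate for the last 24 h. The labels give the uninduced line the genotype WT and the induced line the genotype of IntS12 overexpression. Parental DL1 cells, which carry no transgene, and a second line with FLAG-tagged IntS6 behind the same promoter were given the same 2 treatments, with 3 libraries in each group. Copper is therefore both the inducer of the transgene and a treatment of its own, and within the IntS12 line the pair of effects cannot be told apart. The submitters call the 3 sets of samples biological replicates, but no label says whether they came from separate cultures, so the p-values measure a spread between samples that may be technical.

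Copper is an essential metal that becomes toxic in excess. Fly cells answer it through the factor MTF-1, which binds metal response elements in the promoters of the metallothionein genes, whose small cysteine-rich products bind the metal. The MtnA promoter is one of these, which is why it serves as a copper switch for transgenes. Integrator is a complex bound to RNA polymerase II that cuts nascent RNA. It forms the 3' ends of small nuclear RNAs and ends transcription early at some protein-coding genes, MtnA among them in fly cells. IntS12 is one of its small subunits and has a PHD finger.

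The 6 libraries of the line held 14.2 to 17.0 M counts, of which 71.0% to 73.0% lay in rRNA genes, and 3.97 to 4.94 M counts remained for all other genes. Of 13350 genes with a count, 8174 passed the filter on low counts and were tested. In a principal component analysis of these 6 libraries the first component held 72.2% of the variance and the second 7.77%. Levels are given as CPM, counts scaled to a common library size with all genes in it, with the SD over 3 libraries, and each ± beside a log2 fold change is its standard error. Levels in CPM are not divided by gene length, so they are compared between samples and not between genes.

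The induced gene was examined first. IntS12 (FBgn0039459, chromosome 3R of BDGP6.54, 26863376 to 26864559, plus strand, protein-coding) stood at 7.11, 8.53 and 9.69 CPM in libraries A, B and C of the uninduced line and at 94.6, 88.4 and 95.6 CPM after copper. The groups were far apart, and the copper libraries spread less in proportion than the untreated ones. The mean rose 11.1-fold, from 8.44 ± 1.29 to 92.9 ± 3.92 CPM (log2 fold change 3.47 ± 0.11, edgeR adjusted p = 2.38e-16). In parental cells it was 4.98 CPM without copper and 3.62 CPM with it, and in the IntS6 line 4.22 and 3.3 CPM, so neither of these went up. Reads of the transgene and of the endogenous gene were counted together.

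**Figure D1:**
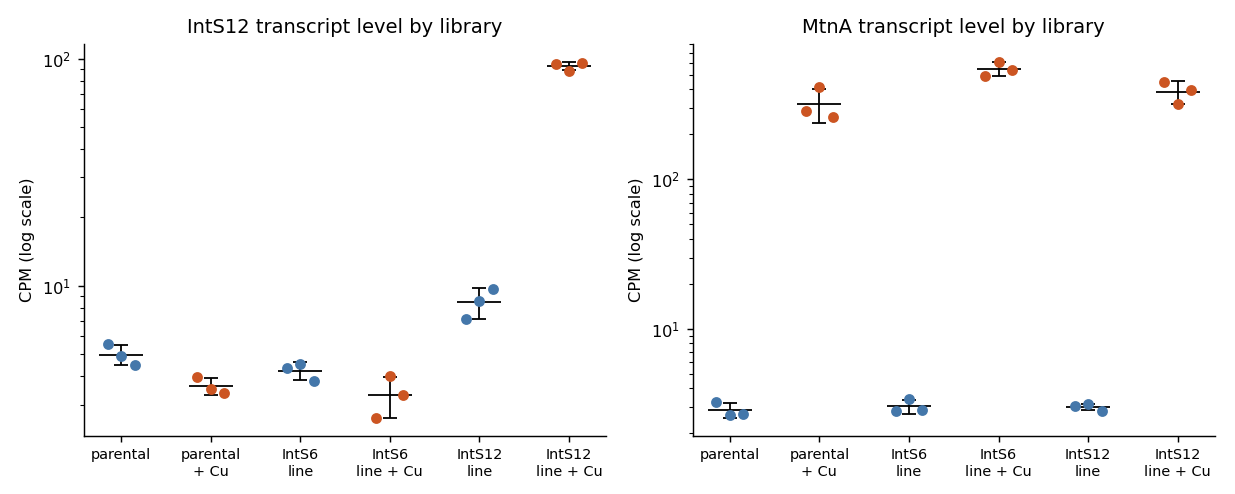
IntS12 (left) and MtnA (right) in CPM on a log scale in all 18 libraries, with 1 point per library and a bar and whiskers for the mean and SD of 3. IntS12 is near 92.9 CPM only in the induced IntS12 line, while MtnA is high in all 3 kinds of copper-treated cells.

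Copper changed a large share of the transcriptome of the line. At an adjusted p under 0.05 in edgeR's quasi-likelihood test, 3007 genes were called, 36.8% of those tested. Of these, 1570 rose (19.2%) and 1437 fell (17.6%), while the median log2 fold change of all tested genes was 0.01. Rises were larger than falls: 528 genes rose and 149 fell by more than 2-fold, 172 and 12 by more than 4-fold, and 72 and 2 by more than 8-fold. The median called rise was 1.60-fold and the median called fall 1.38-fold. Among called genes, CPM of the 2 groups did not overlap for 1512 of the 1570 that rose and 1392 of the 1437 that fell. The calls were made on the same values, and the share over all tested genes is not given here. These counts are therefore no separate support. No spike-in was used, so each direction is relative to the rest of the library. The shares of 19.2% rising and 17.6% falling are the background for each count of a gene group. Where a group had a count of 0 in 1 direction, DESeq2 also called 0 there, and 0 to 3 members moved that way at an unadjusted p under 0.05 in edgeR.

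The metallothioneins led the rises. MtnA (FBgn0002868, chromosome 3R, 9783407 to 9784370, minus strand) went from 3.05, 3.13 and 2.83 CPM to 448, 317 and 397 CPM, a 128-fold rise (log2 7.01 ± 0.19, adjusted p = 5.02e-17). MtnE went from 0.169, 0.133 and 0.0707 CPM to 27.6, 19.7 and 22.8 CPM, or 172-fold (log2 7.43 ± 0.34). For both genes every copper library was far above every untreated one. MtnD had 2 counts over the 3 uninduced libraries and 781 over the 3 induced ones, a ratio of 398 with an exact 95% interval of 110 to 3296 that covers counting error only. MtnB had 0 counts without copper and 220 with it, so it was at least 74.8-fold higher, taking a floor of 3 counts over the group. The order in which these fold changes fall therefore rests on very few untreated counts, and only MtnA had more than 1 CPM before copper.

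Transporters of the same list moved less. Zip99C, a zinc and iron transporter of the ZIP family, rose from 5.59, 5.33 and 5.23 CPM to 25.2, 21.4 and 25.2 CPM, or 4.44-fold (log2 2.15 ± 0.12, adjusted p = 6.65e-12). Over the whole metal list, metallothioneins with transporters and chaperones of copper and zinc, 12 of 20 tested genes rose and 1 fell, with a median log2 fold change of 0.51. The 1 that fell was Zip88E (1.25-fold, adjusted p = 0.0224), and its call was lost in 4 of the 6 fits that left out 1 library of the line, with adjusted p up to 0.0931. Ctr1B, a copper importer, had 2 counts without copper and 23 with it, a ratio of 11.7 with an interval of 2.90 to 103. Both untreated counts were in library B, and the log2 fold change of 3.32 became 5.95 without that library and 2.73 without untreated library A. The main importer Ctr1A stood at 10.4 ± 1.36 and 12.4 ± 1.55 CPM (log2 0.25 ± 0.12, adjusted p = 0.121, or 0.0466 without untreated library A), and the copper chaperone Atox1 at 6.25 ± 0.803 and 6.31 ± 1.01 CPM (adjusted p = 0.976). Zip88E, Ctr1A, Ctr1B and Atox1 were named after their values were seen.

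Iron genes went the same way. Of 8 tested genes of ferritin and iron handling 5 rose and 0 fell (median log2 0.63). Nfs1, the cysteine desulfurase of iron-sulfur cluster assembly, rose 2.18-fold from 30.4, 30.4 and 29.9 CPM to 58.3, 71.4 and 68.5 CPM (adjusted p = 2.87e-08). The mitochondrial iron importer gene mfrn rose 1.59-fold, the metal transporter gene Mvl 1.51-fold and the ferritin heavy chain gene Fer1HCH 1.65-fold. Its partner Fer2LCH, the light chain gene, was at 272 ± 16.5 and 310 ± 27.8 CPM (log2 0.19 ± 0.09, adjusted p = 0.1). It passed with the compared groups alone (0.0332) and without copper library A (0.0406), and was named after its values were seen.

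Outside metal handling, the other 9 genes with the largest rises were low without copper. rdog was the most abundant of them, at 2.09, 1.93 and 1.34 CPM without and 26.9, 30.6 and 33.3 CPM with copper, a 16.6-fold rise (log2 4.06 ± 0.16, adjusted p = 4.74e-14). NtR, which belongs to the ligand-gated ion channel family, went from 0.508, 0.267 and 0 CPM to 7.23, 10.7 and 12.1 CPM. CG8046 rose 27.7-fold (log2 4.79 ± 0.36), hwt 21.1-fold (4.40 ± 0.29), CG43968 21.0-fold (4.39 ± 0.43) and the noncoding lncRNA:CR44138 18.6-fold (4.22 ± 0.41). Taf12L, which encodes a relative of a TFIID subunit, rose 16.4-fold, ChLD3, a predicted chitin deacetylase gene, 15.6-fold and the kinase gene sff 15.3-fold. Each of these 9 genes had every copper library above every untreated one, which was a condition for naming it. Their fold changes rest on few untreated counts, since 8 of the 9 had a mean under 0.5 CPM without copper: the log2 fold change of NtR was 5.13 in all libraries and 6.10 without untreated library A, and without that library those of CG8046, lncRNA:CR44138 and ChLD3 were 5.39, 4.88 and 4.75. MtnD was at 7.78 without untreated library A and CG43968 at 5.09 without untreated library B. ChLD3 overlaps a gene on the other strand over 13.1% of its exon bases.

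The largest falls were smaller than the largest rises. CG6675 went from 6.21, 5.47 and 6.22 CPM to 1.59, 1.15 and 1.49 CPM, or 4.20-fold down (log2 -2.07 ± 0.24, adjusted p = 6.16e-07). Muc14A, a mucin gene and the most abundant of these, fell from 370, 345 and 345 CPM to 106, 109 and 84.5 CPM (3.55-fold, log2 -1.83 ± 0.13). CG12698, whose annotated end lies upstream of Muc14A on chromosome X, fell 3.35-fold, from 17.4 ± 1.07 to 5.15 ± 1.64 CPM. The lipocalin gene Karl fell 3.05-fold, the mucin-type glycosyltransferase gene Pgant9 2.97-fold, the mismatch repair gene Pms2 2.91-fold and nw 3.36-fold. Groups without overlap were a condition for naming these genes. The noncoding asRNA:CR44996 fell 3.08-fold, but 91.6% of its exon bases lie opposite another gene, and Karl has 24.2% there. The strand setting of the counting was not stated, so sense and antisense reads cannot be told apart there. The other 4 named falls were copies of the histone gene His1 and a histone pseudogene.

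**Figure D2:**
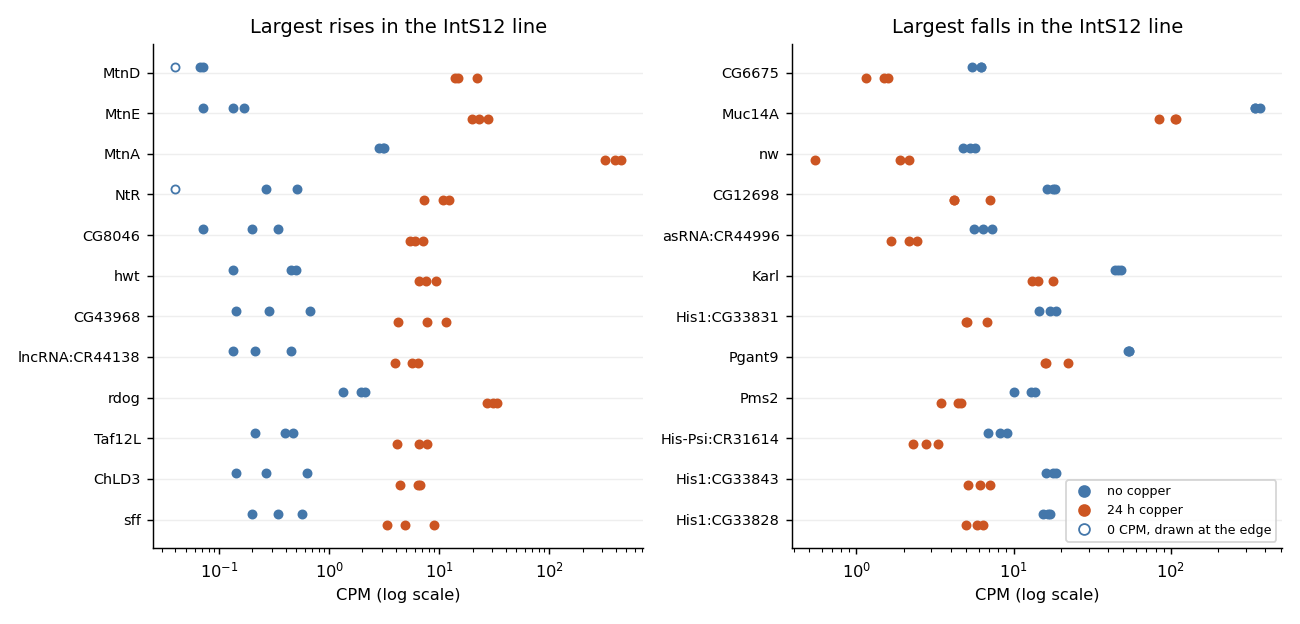
CPM on a log scale in the 3 untreated (blue) and 3 copper-treated (orange) libraries of the IntS12 line for the 12 genes with the largest rises (left) and the 12 with the largest falls (right), with 1 point per library. An open point at the left edge is a library at 0 CPM. In each of the 24 rows the colours do not mix, which was a condition for choosing the genes.

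Antioxidant genes under the factor Nrf2, called cnc in flies, rose in 8 of 17 cases and fell in 0 (median log2 0.38). Gclc, the catalytic subunit of the enzyme that starts glutathione synthesis, rose from 12.5, 10.0 and 11.1 CPM to 34.6, 32.7 and 34.5 CPM (3.02-fold, adjusted p = 1.29e-10). The factor gene cnc rose 1.62-fold, its inhibitor Keap1 2.46-fold and ref(2)P, the fly p62 autophagy receptor gene, 2.09-fold. Glutathione S-transferases, which conjugate glutathione to reactive compounds, rose in 17 of 23 cases and fell in 3 (median log2 0.78). GstD1 went from 47.6 ± 6.04 to 159.7 ± 15.0 CPM (3.35-fold), GstE6 rose 3.72-fold, GstE9 6.92-fold and GstE11 6.52-fold. GstO1, GstZ1 and GstT4 went the other way, 2.62-fold, 2.40-fold and 1.5-fold, and were named after their values were seen. The GstT4 call (adjusted p = 0.0436) was lost in each of the 6 fits that left out 1 library of the line, with adjusted p up to 0.136. Summed over the 34 transferases with a count, tested or not, the 3 untreated libraries held 193 to 222 CPM and the 3 copper libraries 467 to 570 CPM.

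Chaperone genes rose in part. Of 19 tested heat shock genes and cofactors 14 rose and 0 fell (median log2 0.73). The 19 include 6 near-identical Hsp70 copies that could share reads, so this count and median do not rest on 19 separate genes. The stress-induced noncoding RNA lncRNA:Hsromega went from 56.1, 50.3 and 44.4 CPM to 219.7, 204 and 220.4 CPM, or 4.26-fold (adjusted p = 9.76e-11). The mitochondrial chaperone genes Hsc70-5 and Hsp60A rose 1.65-fold and 1.38-fold. Hsp22 rose 5.66-fold from 0.652 CPM, though all its exon bases are shared with another gene on the same strand. The 6 near-identical Hsp70 copies, summed and tested as 1 gene, went from 3.05 ± 0.634 to 8.92 ± 0.535 CPM (2.88-fold, adjusted p = 0.00297). In parental cells this sum was 11.3 ± 5.70 CPM without copper and 19.7 ± 4.41 CPM with it. The line thus rose from a lower start, and its mean with copper was below that of untreated parental cells. The small heat shock gene Hsp23 rose 2.21-fold, from 1.91 ± 0.456 to 4.26 ± 0.945 CPM (adjusted p = 0.00236). Of the genes that did not pass, Hsp68 was at 4.25 and 3.71 CPM (adjusted p = 0.465), Hsp27 at 22.1 and 21.6 CPM (0.871) and the co-chaperone gene stv at 13.0 in both (0.973). The factor gene Hsf was at 37.5 and 38.9 CPM (0.676). Hsp23 and these 4 genes were named after their values were seen.

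Nearly every proteasome subunit gene rose: 34 of 35 did, and Rpt2, named after its values were seen, was the other (log2 0.19 ± 0.08, adjusted p = 0.0674). Rpt2 passed with the compared groups alone (0.0452) and without untreated library C (0.04996) or copper library B (0.0419). The median log2 fold change was 0.46, so most rises were modest. Rpn2 of the regulatory particle went from 93.0, 91.0 and 93.4 CPM to 131, 135 and 145 CPM (1.48-fold, adjusted p = 4.92e-06), Rpt1 rose 1.47-fold and the ubiquitin receptor gene Rpn10 1.57-fold. Rpt3R, a duplicate of the Rpt3 gene, rose more than these, from 3.72, 2.80 and 3.11 CPM to 9.13, 11.9 and 14.6 CPM (3.65-fold). The sum over the list was 1636 to 1690 CPM in the untreated libraries and 2143 to 2397 CPM in the copper ones.

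Endoplasmic reticulum stress genes were divided, with 6 of 15 higher and 3 lower (median log2 0.15). Gp93, the ER form of the Hsp90 chaperone, rose 1.77-fold and PEK, the fly PERK kinase gene, 2.01-fold, while Atf6 fell 1.65-fold and overlaps a gene on the other strand over 19.8% of its exon bases. CaBP1, a disulfide isomerase gene, rose 1.38-fold, and the ER Hsp70 gene Hsc70-3 was at 240 ± 12.9 and 267 ± 26.0 CPM (adjusted p = 0.178). Genes of the ATF4 amino acid stress response rose in 7 of 11 cases and fell in 1, AsnS (median log2 0.50). Cbs, of the transsulfuration pathway, rose 2.00-fold, from 16.5 ± 0.831 to 33.0 ± 3.08 CPM, and the folate enzyme gene Nmdmc rose 2.39-fold and the eIF2 phosphatase gene PPP1R15 1.39-fold. Sesn rose 2.71-fold, with 65.1% of its exon bases shared with another gene on the same strand. The factor gene crc itself was at 411 ± 15.6 and 441 ± 13.5 CPM (adjusted p = 0.264). Cytosolic aminoacyl-tRNA synthetase genes rose in 10 of 20 cases and fell in 1, MetRS (median log2 0.21). SerRS went from 54.4, 53.5 and 52.8 CPM to 103, 116 and 132 CPM (2.19-fold). AlaRS rose 1.70-fold, GlyRS 1.71-fold and AspRS 2.16-fold, the last with 69.5% of its exon bases opposite another gene. Hsc70-3, AsnS, crc and MetRS were named after their values were seen.

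Glycolysis genes mostly rose, and lipid genes did so in part. In the list of glycolytic and gluconeogenic enzymes 12 of 16 genes rose and 0 fell (median log2 0.62). Ldh, lactate dehydrogenase, went from 31.8, 22.5 and 25.0 CPM to 65.6, 148 and 133 CPM, or 4.34-fold (log2 2.12 ± 0.30, adjusted p = 9.85e-06). Copper library A was the lowest for Ldh by a wide margin, though still above every untreated library. The rate-limiting enzyme gene Pfk rose 2.08-fold, Gapdh2 1.58-fold and the hexokinase gene Hex-A 1.5-fold. In the list of sterol and lipid synthesis 7 of 15 genes rose and 1 fell (median log2 0.20), with Hmgs of the mevalonate pathway up 2.15-fold and the acetyl-CoA synthetase gene AcCoAS 1.86-fold. Baldspot, a fatty acid elongase gene, was the 1 that fell (1.5-fold). Of 14 genes of lipolysis and fatty acid oxidation 5 rose and 2 fell (median log2 0.25). They included yip2, a thiolase gene, which rose 2.61-fold, the lipid droplet genes Lsd-2 (1.31-fold up) and Lsd-1 (1.43-fold down) and the lipase gene Hsl (1.33-fold up).

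Nuclear genes for oxidative phosphorylation were below the background in both directions, with 3 of 67 higher and 9 lower (median log2 -0.02). UQCR-C1 of complex III rose 1.41-fold, ND-B17 and ND-18 of complex I fell 1.36-fold and 1.30-fold, and COX7AL rose from 0.0882 to 0.746 CPM. The 9 that fell were 5 without copper library C. For the 15 mitochondrially encoded genes edgeR and DESeq2 called 0 in each direction, and 0 reached an unadjusted p under 0.05 in edgeR (median log2 -0.22). Without the filter on low counts 6 fell, with the compared groups alone 2 (mt:ND1 and mt:ND3, adjusted p = 0.00402 and 0.0365) and without copper library B 1 (mt:CoI, 0.0222). The level of mt:CoI was at 1468 ± 101 and 1254 ± 198 CPM (adjusted p = 0.129). Vacuolar ATPase genes fell in 2 of 16 cases and rose in 0 (median log2 -0.05): Vha100-2 fell 1.43-fold and Vha26 1.17-fold (adjusted p = 0.0277), a call lost in 4 of the 6 fits without 1 library of the line, with adjusted p up to 0.104. Autophagy and lysosome genes rose in 7 of 21 cases and fell in 0 (median log2 0.17), with the protease gene cathD up 1.56-fold, Atg8a of the autophagosome membrane 1.67-fold, the sterol carrier gene Npc2a 2.45-fold and the lysosomal efflux gene spin 1.34-fold.

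Cell cycle genes fell. Of 35 mitosis genes 28 fell and 1 rose (median log2 -0.50). The cytokinesis kinesin gene pav went from 116, 108 and 116 CPM to 50.7, 53.4 and 43.1 CPM (2.32-fold down, adjusted p = 1.06e-09). The kinase gene polo went from 117, 109.6 and 112 CPM to 63.8, 60.9 and 54.6 CPM (1.89-fold down), the spindle kinesin gene Klp61F fell 1.97-fold and tum, the partner of pav in the central spindle, 1.82-fold. The 1 that rose was CycD, the cyclin of the G1 kinase Cdk4 (1.15-fold, adjusted p = 0.026), named after its values were seen, and its call was lost without untreated library A or B or copper library B (adjusted p = 0.0828, 0.0515 and 0.0711). The sum over the list was 2080 to 2126 CPM without copper and 1354 to 1435 CPM with it. Of 29 DNA replication genes 17 fell and 0 rose (median log2 -0.40). They included the polymerase genes PolA1 (1.66-fold) and PolE1 (1.64-fold), the helicase subunit gene Mcm5 (1.76-fold, 18.8, 15.4 and 17.3 CPM to 9.80, 8.80 and 10.7 CPM) and Cdk2 (1.51-fold). Cdk2 has 43.9% of its exon bases opposite another gene.

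Replication-dependent histone genes, whose mRNAs accumulate in S phase, fell in 104 of 111 cases and rose in 0 (median log2 -0.67). That count was 67 without copper library C. These copies are near-identical, so reads could be split among them and single copies, such as His1:CG33831 (2.97-fold down), are uncertain. Summed as 1 gene each, the linker histone His1 fell most, from 329, 401 and 369 CPM to 138, 160.1 and 112 CPM (2.68-fold, log2 -1.42 ± 0.17, adjusted p = 9.94e-07). The core classes fell by less: His3 1.64-fold (adjusted p = 0.00436), His2B 1.56-fold, His4 1.51-fold and His2A 1.49-fold (adjusted p = 0.00504). The groups of 3 libraries did not overlap for any of the 5 sums. Among 9 histone variants and histone mRNA factors 4 fell and 0 rose (median log2 -0.15), namely His3.3B (1.28-fold), His3.3A (1.24-fold), mxc (1.29-fold) and mute (1.20-fold). The mxc and mute products are parts of the histone locus body. The call of mute (adjusted p = 0.0245) was lost in 5 of the 6 fits that left out 1 library of the line, with adjusted p up to 0.0854.

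**Figure D3:**
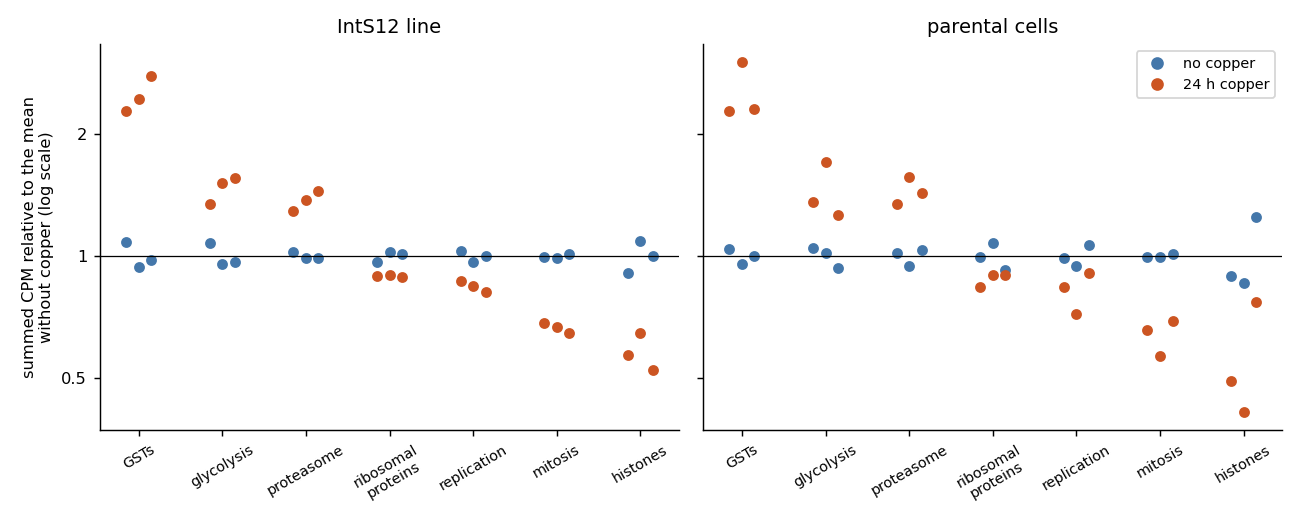
Summed CPM of 7 gene lists in each library, divided by the mean of the 3 untreated libraries and drawn on a log scale, for the IntS12 line (left) and parental cells (right), with 1 point per library. In the IntS12 line the untreated (blue) and copper (orange) points separate in all 7 lists, with glutathione S-transferases, glycolysis and proteasome above 1 and the other lists below it.

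Ribosome genes changed little. Of the 87 tested genes for cytosolic ribosomal proteins 26 fell and 0 rose, with a median log2 fold change of -0.14. RpL9 went down 1.30-fold, from 553 ± 18.3 to 425 ± 33.2 CPM, and RpL37A, RpS28b and RpL5 by 1.22-fold, 1.21-fold and 1.21-fold. The count of 26 was 14 without untreated library B, 15 without untreated library C and 14 without copper library A. Of 72 genes for mitochondrial ribosomal proteins 3 rose and 5 fell (median log2 -0.08), or 1 and 3 without untreated library B and 3 fell without untreated library C, for example mRpS11 (1.48-fold down) and mRpS30 (1.29-fold down). Small nuclear RNAs rose in 6 of 23 cases and fell in 0 (median log2 0.20), a count that was 3 without copper library C. snRNA:U4:38AB went from 60.8 ± 5.87 to 104 ± 35.5 CPM and snRNA:U1:21D from 37.9 ± 1.69 to 51.0 ± 5.04 CPM. Small nucleolar and Cajal body RNAs rose in 7 of 141 cases and fell in 0 (median log2 -0.08), and that count was 4 without untreated library A or copper library C. Both U3 copies snoRNA:U3:54Ab and snoRNA:U3:54Aa rose, 1.81-fold and 1.85-fold. Copies of U1, U4 and U3 are near-identical too, so the level of each is uncertain.

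Signalling genes held a few large rises. In the JNK and JAK-STAT list 8 of 19 rose and 4 fell (median log2 0.15). The matrix metalloprotease gene Mmp1 went from 27.3, 17.5 and 28.3 CPM to 73.95, 70.03 and 89.34 CPM (3.19-fold, adjusted p = 2.42e-06), Mmp2 rose 5.95-fold, egr, the fly TNF gene, 9.07-fold and the cytokine gene upd3 3.07-fold. Of 12 apoptosis genes 6 rose and 3 fell (median log2 0.44). The caspase genes Dcp-1 and Drice rose 1.82-fold and 1.39-fold, while the inhibitor genes Bruce and Diap2 fell 1.35-fold and 1.46-fold. Of 19 Toll and Imd genes 4 rose and 1 fell (median log2 0.10). The ligand gene spz rose 2.17-fold and the adaptor gene Myd88 1.28-fold, the NF-kappaB gene Dif rose 1.22-fold, and the cecropin gene CecC fell 2.21-fold. In the ecdysone list 5 of 14 rose and 3 fell (median log2 -0.13). The nuclear receptor gene Hr4 went from 0.106 to 1.17 CPM, the transporter gene E23 rose 1.44-fold, and the receptor genes ftz-f1 and usp fell 1.38-fold and 1.30-fold. In the actin cytoskeleton list 5 of 18 rose and 5 fell (median log2 0.04), or 3 rising without copper library C, among them Vinc (1.65-fold up), the profilin gene chic (1.21-fold up), Tm1 (1.54-fold down) and cher (1.43-fold down).

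Other subunits of Integrator were looked at beside IntS12. Of 15 tested genes for Integrator and its PP2A subunits 2 rose and 2 fell (median log2 -0.04). IntS6 rose 1.29-fold, from 31.3, 31.9 and 30.8 CPM to 41.7, 36.7 and 43.2 CPM (adjusted p = 0.000491). IntS4 fell 1.41-fold, from 13.8 ± 0.856 to 9.75 ± 0.199 CPM (adjusted p = 0.000181), and IntS3 fell 1.18-fold (adjusted p = 0.0304). IntS3 lost its call in 4 of the 6 fits without 1 library of the line, with adjusted p up to 0.122. A list of 7 published attenuation targets of Integrator held 5 that rose and 0 that fell (median log2 1.80), with MtnA, MtnB and MtnD among them. The median log2 fold change of this list in parental cells was 1.90. The fourth gene by p was pst, which went from 32.1, 26.4 and 26.7 CPM to 64.8, 66.4 and 63.1 CPM (2.27-fold, adjusted p = 1.36e-08). Its members kay, the fly Fos gene (129.6 ± 13.4 and 144 ± 2.36 CPM, adjusted p = 0.224), and peb (0.693 and 0.674 CPM, adjusted p = 0.978) did not pass, and both were named after their values were seen. Among 17 pausing and elongation factor genes 2 rose and 5 fell (median log2 -0.13). Ssrp, a FACT subunit gene, rose 1.37-fold, and the super elongation complex gene Su(Tpl), TfIIS and the NELF subunit gene TH1 fell 1.30-fold, 1.25-fold and 1.27-fold.

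**Figure D4:**
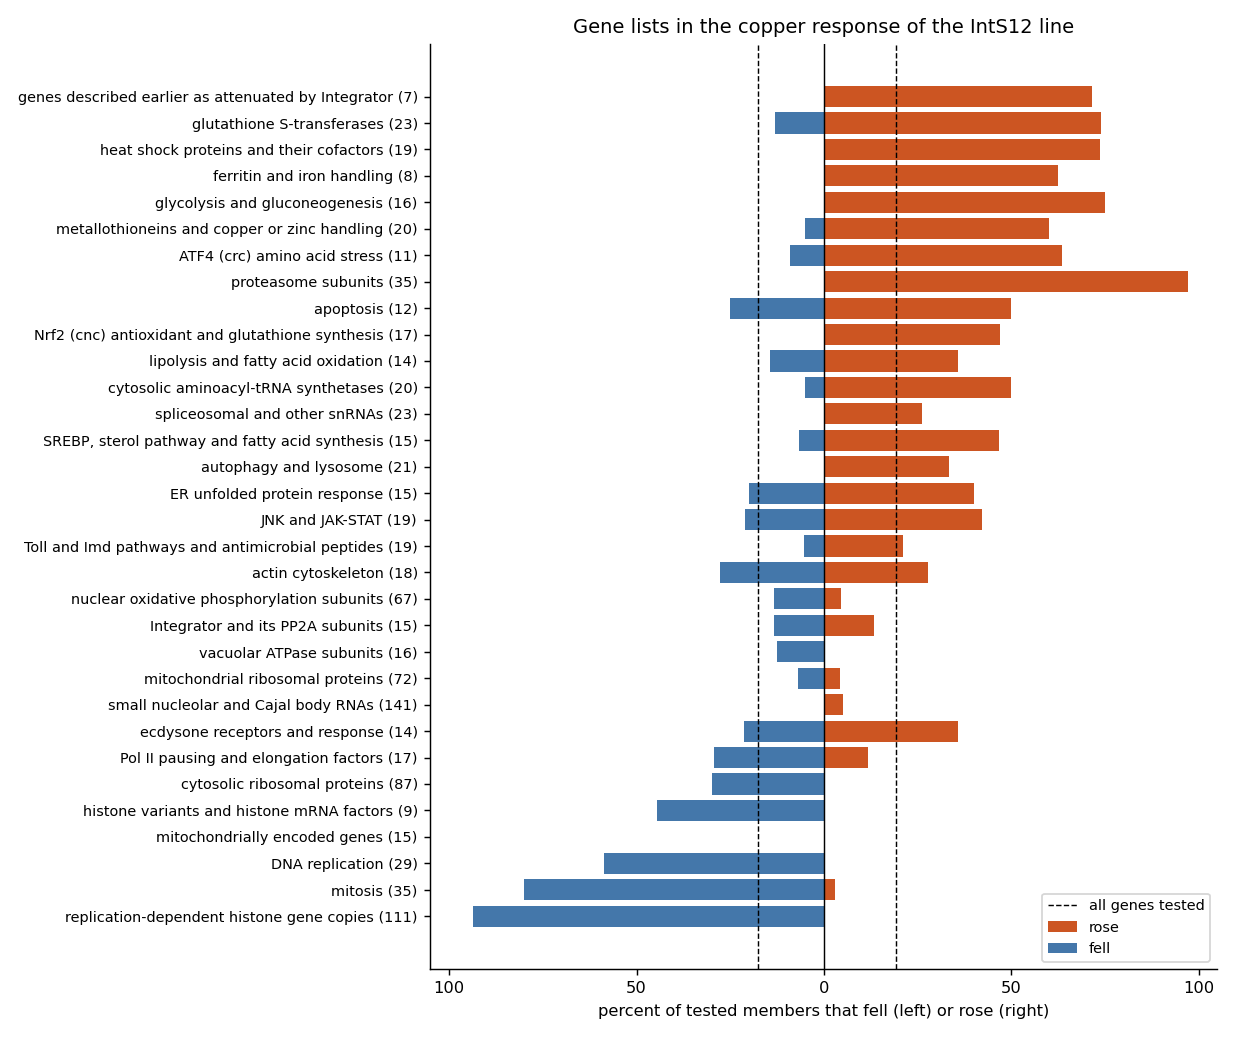
Percent of the tested members of each of 32 gene lists that rose (right, orange) or fell (left, blue) with copper in the IntS12 line, with the number tested in brackets and the lists ordered by median log2 fold change. Dashed lines mark the 19.2% of all tested genes that rose and the 17.6% that fell; proteasome subunits reach 34 of 35 on the right and histone copies 104 of 111 on the left.

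Markers of cell types were checked too. Of 14 plasmatocyte markers, the phagocytic blood cell type of the fly, 13 were tested: 4 rose and 4 fell (median log2 0.07). Their summed level was 589 to 691 CPM without copper and 472 to 538 CPM with it. Among the 4 that fell, the extracellular matrix gene Ppn, which held a large part of this sum, went from 310.5 ± 40.2 to 189 ± 23.4 CPM. The blood cell factor gene srp fell from 98.3 ± 1.85 to 69.7 ± 2.83 CPM and the receptor gene eater from 45.5 ± 5.76 to 26.0 ± 2.21 CPM. The other was glec (log2 -0.62). The 4 that rose were crq (1.53-fold), NimC1 (3 counts without copper and 36 with it), He (log2 0.40) and drpr (log2 0.25). He and drpr lost the call in 2 and 5 of the 6 fits without 1 library of the line (adjusted p up to 0.0846 and 0.165). Other marker lists were sparse: 0 of 7 fat body markers passed the filter, against 2 of 7 for crystal cells and lamellocytes, 2 of 7 for neurons, 3 of 3 for glia, 2 of 6 for muscle, 2 of 4 for germline and 1 of 4 for gut. Of these, PPO3 (1.63-fold) and Itgbn (1.23-fold) of the crystal cell and lamellocyte list and Mlc2 and sls of the muscle list rose, and Myo31DF of the gut list fell 1.23-fold. PPO3 and Itgbn each lost the call in 3 of the 6 fits without 1 library of the line (adjusted p up to 0.11 and 0.117), and Myo31DF in 1, without copper library C (0.0572). Mlc2 was at 0.0868 CPM without and 0.963 CPM with copper, and sls at 0.951 and 2.26 CPM. In the germline list piwi, of the piRNA pathway, went from 4.85, 7.73 and 5.23 CPM to 19.7, 29.0 and 22.0 CPM (3.98-fold, adjusted p = 2.57e-07), whereas its relative aub fell 1.71-fold. The neuronal Snap25 rose to 3.18 CPM (3.70-fold), elav was at 17.4 ± 3.98 and 21.1 ± 0.481 CPM (adjusted p = 0.0887), and moody rose 1.82-fold as the 1 glial marker called. Without untreated library C elav passed (0.00712), as it did without the filter on low counts (0.0402). The part of cell mixture in these values was not tested, and in bulk samples fewer cells of a type cannot be told from less RNA per cell. These marker genes were named after their values were seen.

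To separate the transgene from copper, the response of the line was set against that of parental cells, which share no library with it. The fold changes lay close together over genes, with Pearson's r of 0.89 across 8174 genes, a description without a test since genes are not independent. Of the 1570 genes that rose in the IntS12 line 1552 had a positive log2 fold change in parental cells, and of the 1437 that fell 1431 had a negative one. The median log2 fold change of the genes that rose was 0.68 in the line and 0.61 in parental cells, and that of the genes that fell was -0.47 and -0.46. These genes were chosen by their call in the IntS12 line, which favours larger changes there. The same-sign share over all tested genes is not given here. Over all tested genes the median difference of the responses was 0.01. In the difference of the 2 responses 1 gene of 8174 was called, which is 0.0122% of those tested, 0.0122% higher and 0% lower. That gene was IntS12 itself (log2 difference 3.93 ± 0.19, adjusted p = 6.1e-12). The next smallest adjusted p was 0.999.

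At an unadjusted p under 0.05 edgeR gave 174 genes for this difference, 102 higher and 72 lower, or 2.13% of those tested. A share of 0.05 would pass if no gene differed, and 2.13% is less than that. The count of 174 is therefore no sign of further differences. DESeq2 called 1 gene. What the data could have shown is set by the error: the median standard error of the log2 difference was 0.19, with 0.09 at the 5th and 0.69 at the 95th percentile of genes. The difference between the responses was under 1 in size on the log2 scale for 8011 of 8174 genes. For MtnA, which stood at 2.85 and 319 CPM in parental cells, the difference was 0.20 (95% interval -0.45 to 0.85). For rdog it was 0.06 (-0.52 to 0.63), for Muc14A -0.03 (-0.41 to 0.36), for Gclc 0.07 (-0.24 to 0.37), for pav 0.19 (-0.07 to 0.46) and for Rpn2 -0.07 (-0.29 to 0.16). An interval this narrow was not reached by genes with few untreated counts, such as MtnE (0.06, -2.91 to 3.04). lncRNA:Hsromega had an unadjusted interval away from 0 (-0.55, -0.93 to -0.17), and its adjusted p was 0.999. Unadjusted intervals of mRpS11 (-0.59, -0.97 to -0.20) and Cbs (0.35, 0.08 to 0.62) also lay away from 0, and neither gene was called. Of pst, attenuated by Integrator in earlier work, the difference was 0.04 (-0.26 to 0.35). Medians of the gene lists are given side by side: proteasome subunits had a median log2 fold change of 0.46 in the line and 0.53 in parental cells, glutathione S-transferases 0.78 and 0.81, mitosis genes -0.50 and -0.55 and histone copies -0.67 and -0.75. Besides IntS12 no member of any list was called in this difference. A difference that misses the threshold does not show that the responses were equal.

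**Figure D5:**
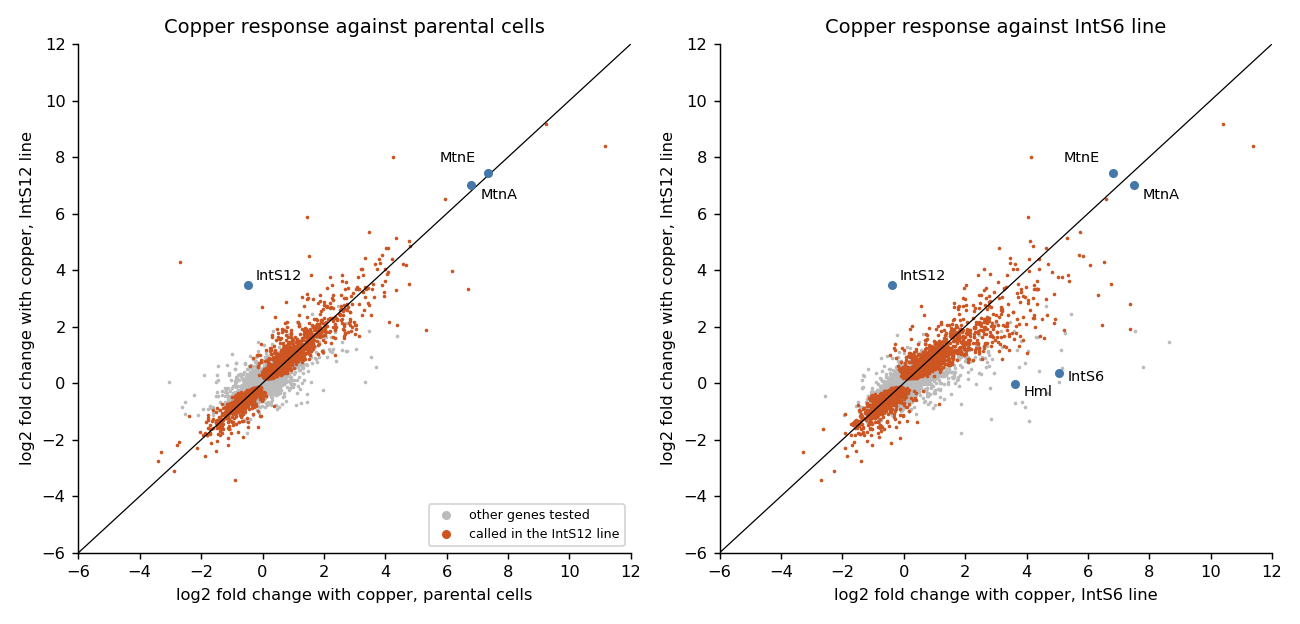
Log2 fold change with copper in the IntS12 line (vertical) against that in parental cells (left) and in the IntS6 line (right), with 1 point per gene for 8174 genes, orange where called in the IntS12 line. The line marks equal response; on the left IntS12 stands apart as the 1 gene called for the difference, and on the right IntS6 and Hml lie below the line.

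Against the IntS6 line more genes differed. In the difference of these responses 54 genes were called (0.661%), of which 1 was higher in the IntS12 line (0.0122%) and 53 lower (0.648%). The 1 higher gene was IntS12 (log2 difference 3.84 ± 0.20, adjusted p = 1.2e-11). All 53 lower genes had positive log2 fold changes in the IntS6 line, and in the IntS12 line 24 of them rose, 8 fell and 21 did not pass. IntS6, the induced gene of the other line, was the largest (-4.68 ± 0.10). Next came Hml, which encodes the clotting protein hemolectin of blood cells. It was at 5.42, 1.93 and 2.90 CPM without and 4.47, 2.98 and 2.71 CPM with copper in the IntS12 line, and its groups overlapped. In the IntS6 line it went from 3.61, 2.13 and 2.45 CPM to 47.9, 27.1 and 24.4 CPM, so the difference was -3.65 ± 0.51 (adjusted p = 0.000326). futsch, a microtubule-associated protein gene, was at 2.32 and 2.27 CPM in the IntS12 line and at 2.25 and 11.4 CPM in the IntS6 line (difference -2.37 ± 0.26, adjusted p = 1.59e-05).

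Several genes that copper raised in the IntS12 line went up further in the IntS6 line. Gs2, a glutamine synthetase gene, rose from 1.24 to 3.15 CPM in the IntS12 line and from 0.872 to 11.8 CPM in the IntS6 line (difference -2.41 ± 0.48, adjusted p = 0.015). CG8086 rose from 0.862 to 2.42 CPM against 0.569 to 8.50 CPM (-2.35 ± 0.53, adjusted p = 0.0382). CG17739 went from 0.713 to 1.29 CPM against 0.727 to 6.76 CPM (-2.34 ± 0.43, adjusted p = 0.0083), and its own rise in the IntS12 line (adjusted p = 0.0377) was lost in 5 of the 6 fits without 1 library of that line. The attenuation target pst rose by 1.19 on the log2 scale in the IntS12 line and by 1.83 in the IntS6 line (adjusted p of the difference = 0.0411). The stress genes Hsp23, Hsp68, Hsp27 and stv were also among the 53, with log2 fold changes of 1.14, -0.19, -0.03 and -0.01 in the IntS12 line against 3.12, 1.17, 0.84 and 0.81 in the IntS6 line. The carnitine palmitoyltransferase gene whd was another (0.37 against 1.36 on the log2 scale), and its call was lost in 8 of the 12 fits without 1 library of either line. It was named after its values were seen. MtnA differed by -0.49 (95% interval -1.14 to 0.15, adjusted p = 0.779), with 387 CPM after copper in the IntS12 line and 549 CPM in the IntS6 line. The Hsp70 copies together reached 8.92 CPM in the IntS12 line and 52.0 CPM in the IntS6 line, but they had also begun lower, at 3.05 and 9.01 CPM (difference -1.01 ± 0.49, adjusted p = 0.583). The calls rest on few libraries: the count of 54 was 28 without untreated library A of the IntS12 line, 30 without its library C, 35 without its copper library C, 24 and 28 without untreated library B or C of the IntS6 line and 28 without copper library A of that line. Over the 12 fits that left out 1 library of either line, CG8086, pst and stv each lost the call in 11, with adjusted p up to 0.196, 0.215 and 0.174, while Hsp68 and Hsp27 kept it in all 12. Gs2 and Hsp23 lost it in 3 of the 12, with adjusted p up to 0.0767 and 0.0986, and CG17739 in 1 (without untreated library C of the IntS12 line, 0.0687).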

How the data were processed

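Per the labels, total RNA of 18 DL1 samples was rRNA-depleted and made into stranded libraries. The deposited table holds the authors' counts per gene for 17753 FlyBase identifiers, and they are estimated counts, since 13.4% of values were not whole. The submitters' processing notes name Trimmomatic 0.39, featureCounts and the builds dm6 and BDGP6. Aligner, annotation release and strand setting were not stated. Symbols matched 17625 identifiers. Coordinates and exon overlaps are from the BDGP6.54 annotation.

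Counts were rounded and fitted in R 4.3.3 with edgeR 4.0.16 (18 libraries, 6 group means, TMM factors, default filter on low counts). Quasi-likelihood F-tests had 12 residual and 9.62 prior degrees of freedom, and p-values were adjusted over 8174 genes (Benjamini-Hochberg, calls under 0.05). The biological coefficient of variation was 8.02%. The comparisons were the copper response of the IntS12 line and its difference from that of parental cells and of the IntS6 line. Groups at 0 counts were given a floor of 3 counts over the group, and those with 1 to 3 counts an exact 95% interval. The fit was tested on simulated data. Alternatives were DESeq2 1.42.0, its size factors, library sizes alone, no filter, no rRNA genes, the compared groups alone, a replicate block and leaving out each library. Summing histone and Hsp70 copies was chosen after seeing the data.

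Genes named by rule were IntS12, IntS6, MtnA and the 12 largest called changes per direction in the copper response of the IntS12 line. For these 12 the groups did not overlap and the higher group had at least 5 CPM. For each difference the 6 largest called changes per direction with at least 5 CPM in the highest of the 4 groups were named, without a condition on overlap. rRNA genes were left out. In each of 32 lists the 4 members with the smallest p were named, or all members where 5 or fewer were tested. One gene that the rule named is not reported here. Others are marked as named after their values were seen. Members, lists and the 8 marker lists were chosen with earlier results of these data known, so no count is independent support. Some genes are in more than 1 list. Pairs of libraries within a group differed by more than counting noise, so none was treated as a duplicate.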

Additional observations from a re-analysis of the deposited data

Results flagged for a closer look

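The difference between responses to copper was itself tested, and it passed an adjusted p under 0.05 in edgeR for the following named genes. Against parental cells the response of the IntS12 line differed for IntS12 (log2 difference 3.93). Against the IntS6 line it was higher for IntS12 (3.84) and lower for IntS6 (-4.68), the induced genes of the lines. It was also lower for Hml (-3.65), Gs2 (-2.41), futsch (-2.37), CG8086 (-2.35) and CG17739 (-2.34). The heat shock genes Hsp23 (-1.98), Hsp68 (-1.36), Hsp27 (-0.87) and stv (-0.82), whd (-0.99) and the attenuation target pst (-0.64) were lower too. With 3 libraries in a group, single outlying libraries were not tested.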

How the results depend on the processing

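The copper response of the IntS12 line gave 3007 called genes, and the count stayed within 1.5 times of that: 2670 with DESeq2, 3007 with its size factors, 2812 with library sizes alone, 3067 without a filter, 3045 without rRNA genes, 3067 with the compared groups alone and 2365 to 2759 with 1 library left out. For the copper response of the IntS12 line minus that of parental cells the count was 1 under each of these, from 1 to 1 with 1 library left out, except without a filter, where it was 8 (4 higher, 4 lower, with IntS12 the 1 shared gene). For the copper response of the IntS12 line minus that of the IntS6 line the count of 54 became 155 without a filter (13 higher, 142 lower), 64 with DESeq2, 79 with the compared groups alone and 24 to 52 with 1 library left out. The cause of these shifts was not tested. The median log2 fold change of all genes moved by less than 0.1 under each setting. No call of a named gene changed direction, and the direction of other called genes was not compared between settings.

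The letters A, B and C were not taken as pairs, since not every same-letter correlation of deviations was over 0.1: they were 0.029, 0.086 and 0.023 for the line without and with copper. Across cell lines the A libraries correlated at 0.0907 to 0.188, and the B and C libraries at -0.112 to 0.0663. The A library also had the highest TMM factor in each of the 6 groups. Not every sample correlated best with its own letter. With a replicate block the copper response of the IntS12 line had 3188 called genes, the copper response of the IntS12 line minus that of parental cells 1, and the copper response of the IntS12 line minus that of the IntS6 line 76. The block also brought mt:ND1 (adjusted p = 0.0327), mt:CoI (0.0457), mt:tRNA:Gly-TCC (0.0394), elav (0.0438) and Vha68-2 (0.0413) past the threshold.

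A planned search for promoter motifs was not run, as no promoter sequences were used here. Depth limits genes with few untreated counts, whose fold changes are bounds or have wide intervals, and differences between responses that are small against their standard errors were not detectable.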
